A study of Mus musculus with 21 samples.

Results

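The microRNAs described here are those of the rodent cluster in an intron of Sfmbt2, taken as every named row of the count table that is an arm or a lettered copy of miR-297, miR-466, miR-467 or miR-669. Of 1903 named rows, 70 met this rule, 8 of them rows that join the names of near-identical microRNAs. A count in any library was found for 27 of the 70, and 18 had a count in at least 5 of the 21 libraries. These 18 are described in detail. The number of libraries with a count chose them, so their presence in the libraries is a description and not a result. The rule used no comparison between groups.

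Small RNA libraries were made from the left ventricle of C57BL/6J mice, each mouse giving 1 library. Sham mice (5) had sham surgery and no inhibitor. TAC mice (5) had transverse aortic constriction, which overloads the left ventricle with pressure, and no inhibitor. TAC+PDE5A-I mice (5) had the same constriction and received sildenafil, an inhibitor of phosphodiesterase 5A. TAC+PDE9A-I mice (6) had the constriction and received PF-04449613, an inhibitor of phosphodiesterase 9A. Both inhibitors were given for 4 weeks from week 1 after surgery. Both enzymes break down the second messenger cyclic GMP. No genetic alteration is named for any group. Ages, doses and the length of follow-up of the untreated groups were not used here.

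A microRNA is cut from a hairpin transcript, and either arm of the hairpin (5p or 3p) can give the mature strand. Bases 2 to 8 of the mature strand, the seed, set most of its target pairing. Sfmbt2 encodes a Polycomb group protein and is expressed from the paternal allele in the early mouse embryo and the placenta. The hairpins of its intron arose by repeated duplication in rodents, and the cluster is best known from embryonic stem cells and trophoblast. Its members are near copies of one another, so a read of a shared sequence cannot be given to a single hairpin, and the joined rows of the table are of this kind. The way reads of close relatives were split is not given in the sources used here, and a value for 1 lettered copy carries that uncertainty.

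RefSeq (GRCm38.p6) gave a mature sequence for 8 of the 70 members. They are shown for the repeats of alternating U and G or C and A that run through these families. The seed, bases 2 to 8, is in capitals, and every sequence reads 5′ to 3′.
miR-466i-3p: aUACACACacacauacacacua
miR-466j: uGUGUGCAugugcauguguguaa
miR-466k: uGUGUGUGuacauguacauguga
miR-466q: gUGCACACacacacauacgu
miR-467f: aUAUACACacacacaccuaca
miR-467g: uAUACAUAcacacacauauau
miR-467h: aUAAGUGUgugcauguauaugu
miR-669n: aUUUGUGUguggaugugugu
The longest run of strictly alternating U and G, or C and A, was 7 to 12 bases in these sequences. Their 8 seeds all differed, so none of the 8 could be grouped by seed. miR-467h shared its seed with miR-668-5p, which is no member and had no count. All 8 lie outside Sfmbt2. miR-466i-3p is at chr13:17747552-17747573 on the plus strand, within an intron of Cdk13. miR-466k is at chr3:85467396-85467418 on the plus strand, within an intron of Gm37240, and was the only one of the 8 with a count (19 reads, all in Sham mouse 1). The other 62 members, with the 18 described in detail among them, are given by name.

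The GENCODE M21 annotation of GRCm38 placed most of the hairpins in 1 intron of Sfmbt2. It lists 81 hairpin genes of the 4 families, and 71 of them lie within Sfmbt2 (chr2:10370510-10595253, plus strand). All 71 are on the same strand as the gene and none overlaps an exon. They fall in a single intron of 62472 bases, chr2:10461473-10523944, and span 51617 bases of it (chr2:10466663-10518279) with a median spacing of 298.5 bases. The 10 other hairpins lie elsewhere in the genome. Rows with all their hairpins inside Sfmbt2 numbered 56 and held 2578 of the 2784 member reads (92.6%). Of the 18 members described in detail, 17 were of this kind. The exception was miR-466i-5p, whose hairpin (chr13:17747473-17747593, plus strand) lies in an intron of Cdk13 on the strand opposite to that gene.

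**Figure D1:**
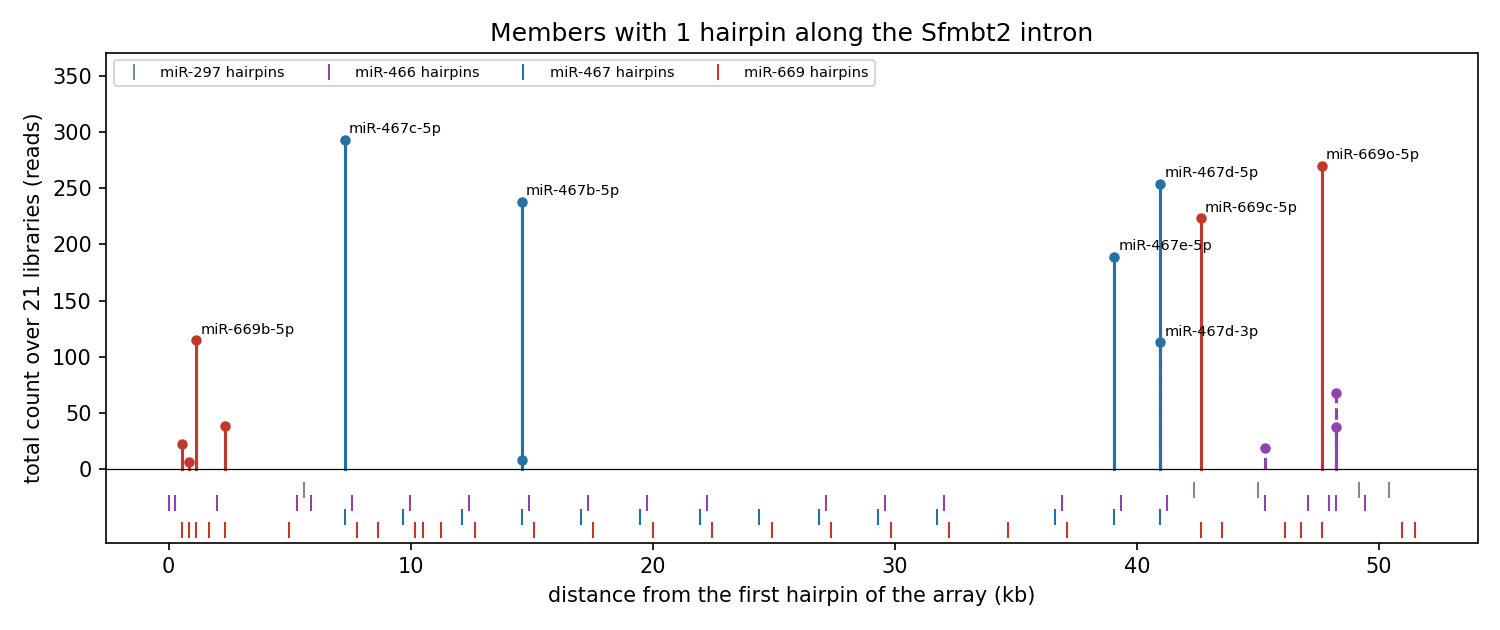
Total counts over the 21 libraries (vertical axis, reads) of member rows with a count and 1 hairpin in the Sfmbt2 intron, against the distance from the first hairpin of the array (horizontal axis, kb). Solid stems are 5p rows and dashed stems are the others, while ticks below 0 mark every annotated hairpin by family; miR-467c-5p near 7.268 kb and miR-669o-5p near 47.637 kb lay towards opposite ends of the array with totals of 293 and 270 reads.

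Single-hairpin rows can be placed only where such hairpins are annotated, and between Mir467b and Mir467e the annotation holds multi-copy hairpins alone. Of the single-hairpin genes whose row had more than 100 reads, Mir669b is the first of the array, at 1.127 kb. Mir467c (chr2:10473931-10474027) and Mir467b (chr2:10481248-10481320) follow. Mir467e (chr2:10505721-10505807), Mir467d (chr2:10507630-10507714), Mir669c (chr2:10509296-10509404) and Mir669o (chr2:10514300-10514395) lie near its end. Of the rows with a hairpin in Sfmbt2, the 42 with a single one held 1897 reads, the 14 with 2 to 9 held 165 and the 5 with at least 10 held 524. The number of hairpins did not order the reads. Among the rows with many copies, miR-669a-5p/miR-669p-5p (14 hairpins) had 343 reads, miR-467a-3p had 28 and miR-466b-3p/miR-466c-3p/miR-466p-3p (11 hairpins) had 20. miR-467a-5p, with 10 hairpins, had none. The plot of total counts by hairpin position shows the single-hairpin rows only.

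The cluster gave few reads in the left ventricle. A library held 13 to 246 member reads, beside library totals of 3766517 to 7490436 in Sham, 5373960 to 8497792 in TAC, 1205417 to 3969716 in TAC+PDE5A-I and 1546318 to 7532591 in TAC+PDE9A-I. The highest member ranked between 300 and 524 among the named rows of a library, and 2 to 17 member rows had a count in a library. A share of 38.6% of members had a count in any library, against 43.9% of the 1833 other named rows. A count of 0 allows up to 3 reads, which is 0.353 CPM, the count per 1e6 reads of the library, in the deepest library and 2.489 in the shallowest; this limit covers counting error only, because the reads carry no molecular identifiers and may repeat a molecule. The 4 libraries under 2000000 counts were TAC+PDE5A-I mice 3, 4 and 5 and TAC+PDE9A-I mouse 5. All 4 microRNAs taken as markers of heart muscle had counts, with a summed level of 70067 to 227498 CPM, and the 6 markers of embryonic stem cells, from the miR-290 cluster, were at 0 in every library.

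The 5p arms carried most of the signal. The 29 rows named as 5p held 2286 reads (82.1%), the 29 rows named as 3p held 477 (17.1%), and 12 rows with no arm in their name held 21. By family, the miR-669 rows held 1181 reads (42.4%), the miR-467 rows 1123 (40.3%) and the miR-466 rows 480 (17.2%). None of the 4 miR-297 rows had a count. In miR-467 and miR-669 the 5p reads outnumbered the 3p reads, with 974 against 149 and 1048 against 133. In miR-466 they were closer, with 264 against 195.

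Summed over the 70 members, the cluster was lower after TAC than after sham surgery. Levels are given as CPM scaled by TMM, a normalization that adjusts library totals for composition. The summed level was 41.7, 35.2, 34.7, 40.8 and 47.6 CPM in the 5 Sham mice and 16.7, 22.3, 17.8, 23.4 and 29.2 in the 5 TAC mice. Every Sham mouse was above every TAC mouse. For CPM from library totals alone this held narrowly, with a lowest Sham value of 29.4 and a highest TAC value of 28.8. The mean fell from 39.997 ± 5.30 (SD, n = 5) to 21.9 ± 4.99 (n = 5), a log2 ratio of -0.87. With library totals alone the log2 ratio was -0.73. Within the ear tag ranges that hold both groups the log2 ratio was -0.93 (tags in the 100s) and -0.75 (tags in the 600s). The first rests on Sham mice 1, 2 and 3 and TAC mice 1 and 2, the second on mice 4 and 5 of each group. No p-value is given for a sum over members chosen with these data known.

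**Figure D2:**
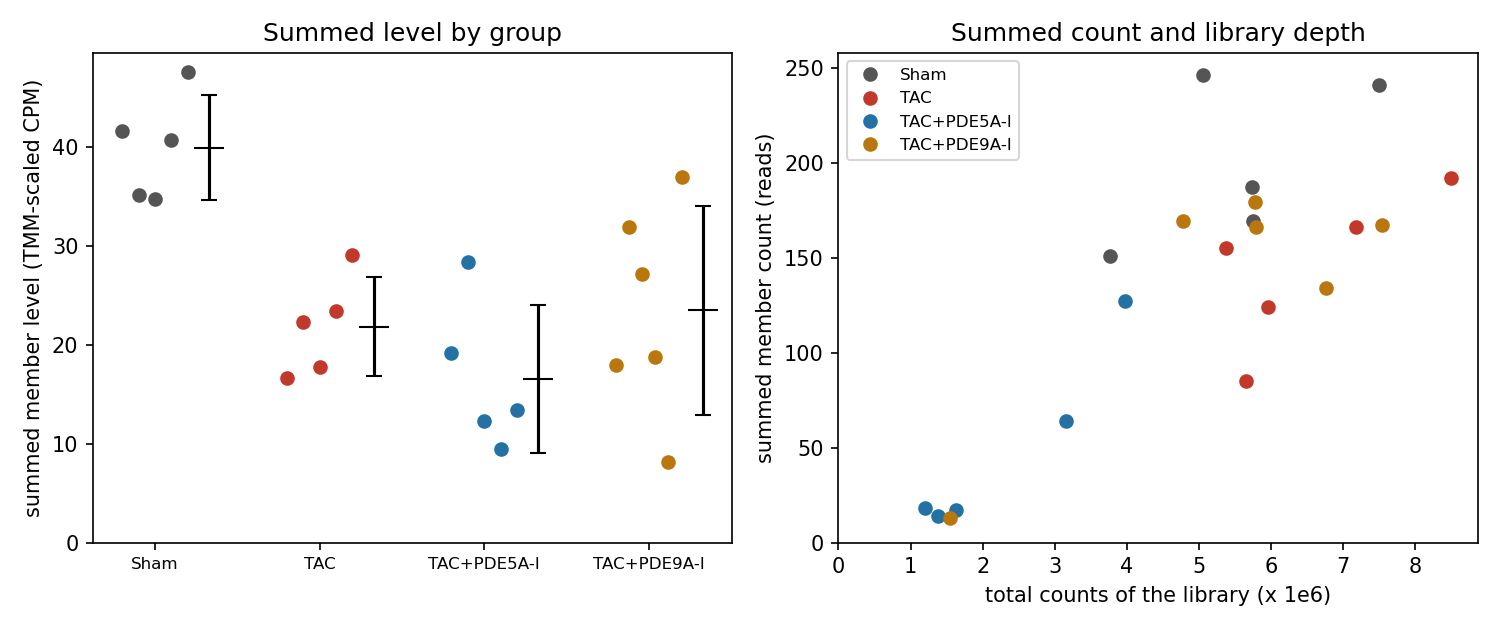
Left, summed level of the 70 members (vertical axis, TMM-scaled CPM) in each library by group, with the group mean as a horizontal line and ± SD as a bar; right, the summed member count (reads) against the total count of each library (x 1e6). The 5 Sham libraries sit at 34.7 CPM or above and the 5 TAC libraries at 29.2 or below, while the 4 libraries under 2000000 counts hold between 13 and 18 member reads.

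The treated groups spread more widely. In TAC+PDE5A-I the summed level was 19.2, 28.4, 12.3, 9.44 and 13.4 CPM, with a mean of 16.5 ± 7.50 (SD, n = 5). In TAC+PDE9A-I the lowest was 8.12, the median 23.0 and the highest 37.0 CPM, with a mean of 23.5 ± 10.5 (n = 6). Both ranges overlapped that of TAC. The low values were those of the shallow libraries: TAC+PDE5A-I mice 3, 4 and 5 had 17, 14 and 18 member reads, where the mean TAC share would give 36.0, 30.6 and 26.6, and TAC+PDE9A-I mouse 5 had 13 against 34.1. TAC+PDE5A-I mice 1 and 2 had 64 and 127 reads, against 69.5 and 87.7. In TAC+PDE5A-I depth could not be told apart from ear tag, since mice 1 and 2 carry tags in the 500s and mice 3, 4 and 5 carry tags in the 600s. The log2 ratio of TAC+PDE5A-I to TAC was -0.40 over all libraries, 0.42 within the 500s, -1.17 within the 600s and 0.12 without the libraries under 2000000 counts. TAC mouse 3 was the only TAC library in the 500s, and TAC mice 4 and 5 were those in the 600s. For TAC+PDE9A-I against TAC the log2 ratio was 0.10 over all libraries, and 0.28 without the shallow library. These comparisons share the TAC libraries.

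The miR-669 rows and the 5p rows separated Sham from TAC most evenly. The summed miR-669 level was 17.3 ± 1.27 CPM in Sham (SD, n = 5; 15.5 to 18.6) and 10.01 ± 2.00 in TAC (n = 5; 8.05 to 13.2). It was 4.70 ± 3.21 in TAC+PDE5A-I (n = 5) and 10.5 ± 5.57 in TAC+PDE9A-I (n = 6). The summed 5p level was 31.0 ± 1.79 CPM in Sham (29.2 to 33.9) and 18.3 ± 2.93 in TAC (15.1 to 21.3). Neither sum overlapped between Sham and TAC. The miR-467 rows had means of 15.7 ± 6.45 in Sham and 8.47 ± 2.98 in TAC (n = 5 each), and they did not overlap either, though narrowly (lowest Sham 11.51, highest TAC 11.48). The miR-466 rows, at 6.97 ± 3.14 and 3.40 ± 1.02, overlapped.

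The 3p rows were close to absent in TAC+PDE5A-I. Their summed counts were 26, 27, 18, 36 and 95 in Sham and 8, 10, 16, 39 and 42 in TAC. In TAC+PDE5A-I they were 0, 0, 0, 2 and 0, where the mean TAC share would give 11.3, 14.2, 5.84, 4.96 and 4.31 reads. In TAC+PDE9A-I the lowest was 0, in the shallow mouse 5, the median 24.5 and the highest 54. The 3p reads of TAC+PDE5A-I were thus also at 0 in its mice 1 and 2, which are not among the shallow libraries. The 5p rows of the same mice held 64 and 127 reads. These libraries were still higher in content of G and C bases (GC), weighted by counts over the microRNAs with a known sequence. It was 46.0% in each, beside 44.6 to 45.0% in Sham and 44.9 to 45.1% in TAC. Those microRNAs held 53.0 and 54.5% of the counts in mice 1 and 2, 50.9 to 55.1% in Sham and 53.3 to 61.6% in TAC. The part of GC content in the 3p counts was not tested. Part of the 3p sums was 1 row, miR-467d-3p. It had 64 of the 95 reads of Sham mouse 5 and 15 and 22 reads in TAC mice 4 and 5. Without it the counts were 26, 27, 18, 36 and 31 in Sham and 8, 10, 16, 24 and 20 in TAC. The mean TAC share would then give 7.58, 9.56, 3.93, 3.34 and 2.90 reads in TAC+PDE5A-I, where the counts were unchanged at 0, 0, 0, 2 and 0.

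**Figure D3:**
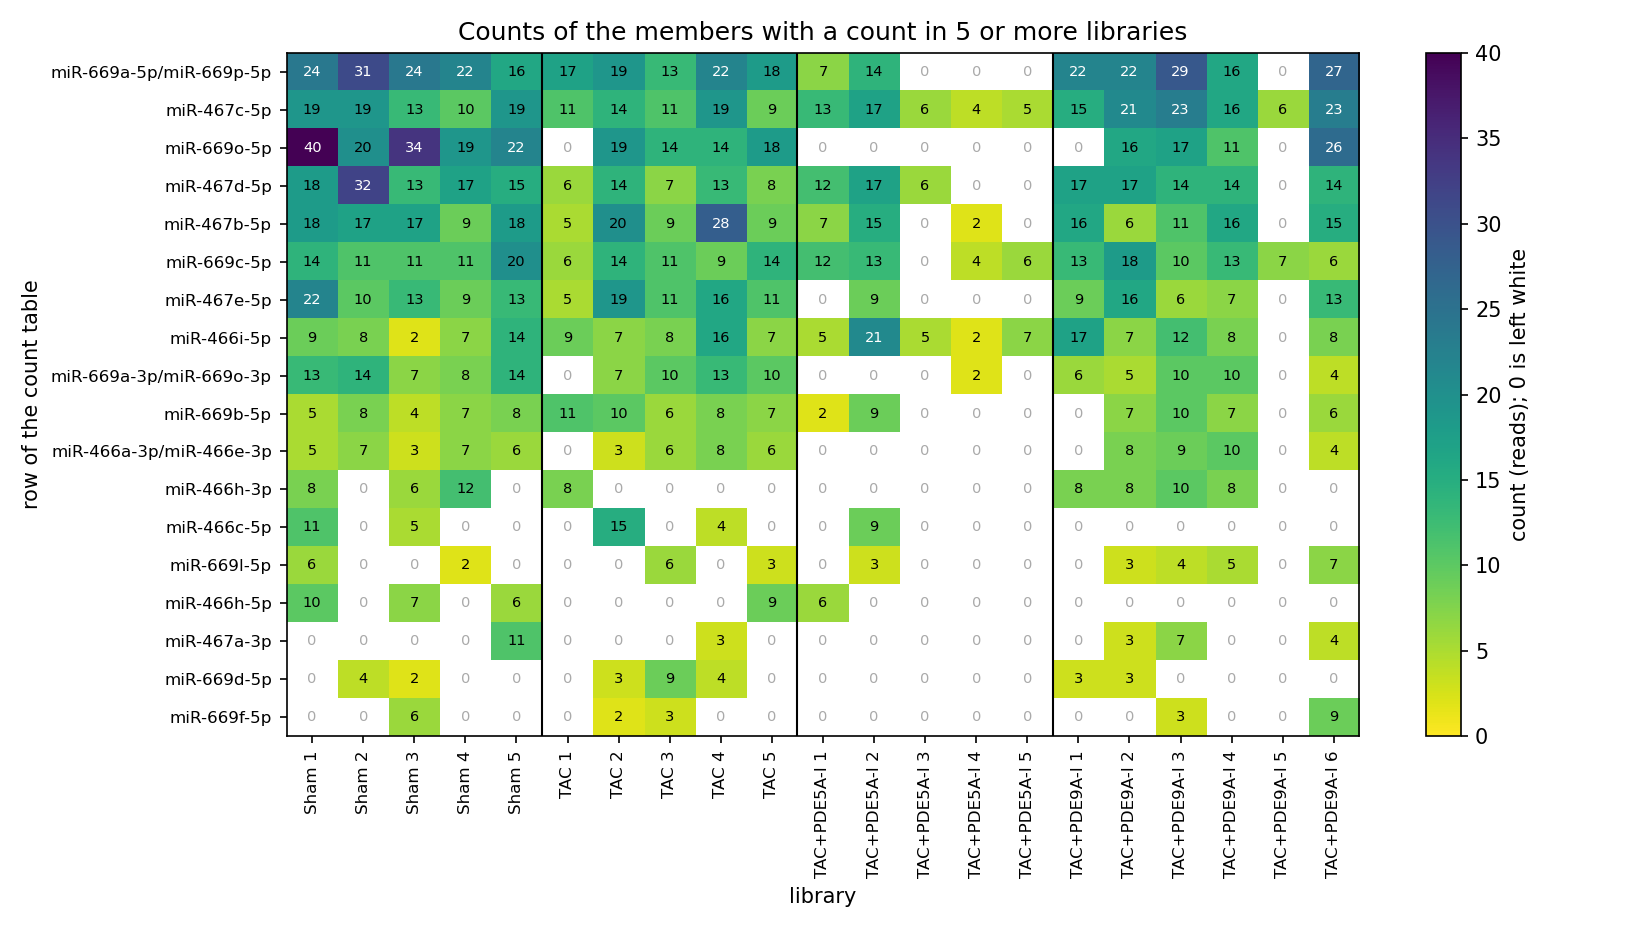
Counts (reads) of the 18 members with a count in 5 or more libraries, 1 row per microRNA and 1 column per library, with vertical lines between the groups; colour runs from low (yellow) to high (dark) and 0 is white. miR-467c-5p is filled in all 21 libraries, and miR-669o-5p is at 0 in all 5 TAC+PDE5A-I libraries, in TAC mouse 1 and in TAC+PDE9A-I mice 1 and 5.

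The 18 members are given by their counts. These were not corrected for sequence, and the splitting of reads among close relatives is not known. They therefore order the members by reads and not by molecules. At the limit of the rule, miR-466c-5p (44 reads), miR-466h-5p (38) and miR-467a-3p (28) had counts in exactly 5 libraries and were included. miR-467d-3p (113 reads), miR-466b-3p/miR-466c-3p/miR-466p-3p (20) and miR-466d-3p (19) had counts in 4 and were left out. The largest of these, miR-467d-3p, had 64 reads in Sham mouse 5, 15 and 22 in TAC mice 4 and 5, 12 in TAC+PDE9A-I mouse 4 and 0 in the other 17 libraries. The 6 rows with a count in a single library held 2 to 19 reads each.

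The test between groups reached 8 of the 70 members, those with enough reads to pass the filter, which are also the 8 with the highest mean level. It was fitted on all 561 microRNAs that passed (edgeR's quasi-likelihood test, with Benjamini-Hochberg adjustment over the 561 and a threshold of 0.05). The other 62 members, 10 of the described 18 among them, were not tested. Of the 18, 10 had a Sham mean below 2.24 CPM, the level that 3 reads stand for in the shallowest library on the TMM scale, so a fall could not be seen there in single libraries of that depth.

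After TAC, all 8 tested members had a fitted change below 0, and none passed the test. The share of all tested microRNAs called was 2.14% higher and 0.178% lower, and 56.1% had a change below 0. The median log2 fold change of the 8 was -0.71, beside -0.08 over all 561, and none of the 8 reached an unadjusted p of 0.05 in edgeR, beside 5.88% of all tested microRNAs lower and 9.8% higher at that level. DESeq2 gave no adjusted p for any of the 8 and an unadjusted p under 0.05 for 2 of them, both lower. Groups did not overlap for 3 of the 8, all lower in TAC, beside 8.56% of all tested microRNAs.

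The 3 members that did not overlap between Sham and TAC were miR-467c-5p, miR-467d-5p and miR-669o-5p. miR-467d-5p had 18, 32, 13, 17 and 15 reads in Sham and 6, 14, 7, 13 and 8 in TAC. Its level was 3.86 ± 1.42 CPM (SD, n = 5) against 1.43 ± 0.35 (n = 5), with a log2 fold change of -1.41 ± 0.80 (SE) and an edgeR adjusted p of 0.476. Without the libraries under 2000000 counts, a setting chosen after the totals were seen, the change was -1.43 ± 0.41 and passed with an adjusted p of 0.0329. That fit called 29 lower and 46 higher of 660 microRNAs tested, beside 1 lower and 12 higher of 561 in the main fit. The size of the change was thus the same in both fits, while the standard error was smaller without the shallow libraries.

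miR-669o-5p, from the far end of the array, had the largest number of reads of any member in a single Sham library after miR-467d-3p. It had 40, 20, 34, 19 and 22 reads in Sham and 0, 19, 14, 14 and 18 in TAC. Its level was 5.41 ± 1.49 CPM in Sham and 1.93 ± 1.25 in TAC, a log2 fold change of -1.47 ± 1.04 with an adjusted p of 0.631. The TAC mouse at 0 was mouse 1, where the other TAC libraries would give 14.1 reads at its depth. That library was also at 0 for miR-669a-3p/miR-669o-3p, where the other TAC libraries would give 8.54 reads, while it held 17 reads of miR-669a-5p/miR-669p-5p.

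miR-467c-5p was the only member with a count in every library. It had 19, 19, 13, 10 and 19 reads in Sham, 11, 14, 11, 19 and 9 in TAC, and 13, 17, 6, 4 and 5 in TAC+PDE5A-I. In TAC+PDE9A-I the lowest count was 6, the median 18.5 and the highest 23. Scaled to CPM, its mean was 3.18 ± 0.47 in Sham and 1.93 ± 0.31 in TAC (n = 5 each), 3.69 ± 0.61 in TAC+PDE5A-I (n = 5) and 3.36 ± 1.24 in TAC+PDE9A-I (n = 6). TAC was the lowest group, and the means of the other groups lay within 1 SD of TAC+PDE9A-I. The change in TAC against Sham was -0.72 ± 0.36 on the log2 scale, with an adjusted p of 0.361.

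The remaining tested members overlapped between Sham and TAC. miR-669a-5p/miR-669p-5p had 24, 31, 24, 22 and 16 reads in Sham and 17, 19, 13, 22 and 18 in TAC, a log2 fold change of -0.79 ± 0.78. miR-669c-5p had 14, 11, 11, 11 and 20 against 6, 14, 11, 9 and 14, a change of -0.69 ± 0.62. Their adjusted p-values were 0.830 and 0.797, and each group's range reached into the other. miR-467b-5p changed by -0.63 ± 0.78 with 9 to 18 reads in Sham and 5 to 28 in TAC. For miR-467e-5p the ranges were 9 to 22 and 5 to 19 reads. miR-466i-5p, the row outside Sfmbt2, had the smallest difference, at 1.61 ± 0.83 CPM in Sham and 1.42 ± 0.42 in TAC (log2 fold change -0.18 ± 0.68, adjusted p 0.978).

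**Figure D4:**
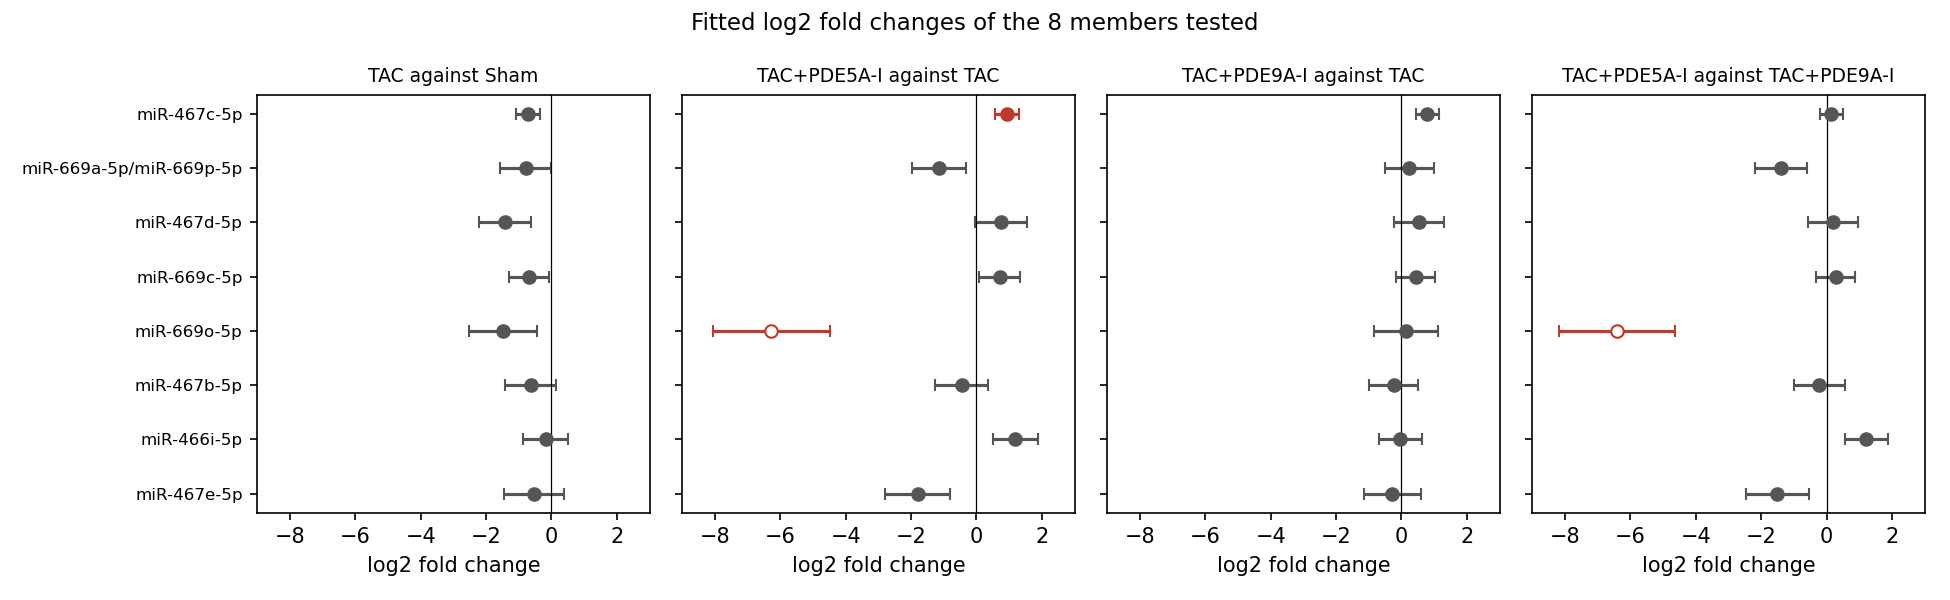
Fitted log2 fold change (horizontal axis) of the 8 tested members (rows) in the 4 comparisons (panels); points are estimates, bars are ± SE, red marks an adjusted p under 0.05, and open points are fits against a group at 0 in every library, whose size is no estimate. In TAC against Sham all 8 points lie below 0, and the TAC+PDE5A-I panels hold the only red points.

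With sildenafil the members did not move together. Against TAC, 4 of the 8 had a fitted change above 0 and 4 below, beside 56.1% of all tested microRNAs below. The test called 1 higher and 1 lower, beside 21.6% of all tested microRNAs called higher and 24.8% called lower, so the share of members called was not above that of the table. The median log2 fold change was 0.13, beside -0.31 over all 561. That median over all microRNAs depended on the scaling, and was 0.16 under upper-quartile scaling, where the members' median was 0.53.

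The member called higher was miR-467c-5p, at 1.92-fold its TAC mean. Its log2 fold change was 0.93 ± 0.37 (95% interval 0.16 to 1.70) with an adjusted p of 0.0449. All 5 TAC+PDE5A-I levels were above all 5 TAC levels, beside 13.2% of all tested microRNAs with groups apart in this direction. The call did not hold in most other fits: leaving out any 1 library of the 2 groups gave an adjusted p of 0.0564 to 0.182, the ear tag range as a covariate gave 0.105, DESeq2 gave 0.0546, and the fit without the shallow libraries gave 0.149. The log2 fold change stayed between 0.66 and 1.43 in these and the other fits.

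The member called lower was miR-669o-5p, which had no read in any of the 5 TAC+PDE5A-I libraries. At the mean TAC share, the libraries would have held 6.29, 7.93, 3.26, 2.77 and 2.41 reads. Set against a floor of 3 reads per library, its mean was 1.21-fold lower than in TAC, with an edgeR adjusted p of 0.0113. The floor covers counting error only. TAC mouse 1 was at 0 where the other TAC libraries would give 14.1 reads, so 1.21 is no lower bound. The groups overlapped, since TAC mouse 1 was also at 0. Without the libraries under 2000000 counts the adjusted p was 0.0533, and leaving out single libraries gave 0.00739 to 0.0223. Scaled and filtered within the 2 groups alone, the row did not pass the filter and was not tested. The related row miR-669a-3p/miR-669o-3p, not tested over all libraries, had 0, 0, 0, 2 and 0 reads in TAC+PDE5A-I and 0, 7, 10, 13 and 10 in TAC.

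The other tested members did not pass in TAC+PDE5A-I against TAC. miR-669a-5p/miR-669p-5p had 7, 14, 0, 0 and 0 reads, and miR-467e-5p had 0, 9, 0, 0 and 0. Their log2 fold changes were -1.15 ± 0.82 and -1.79 ± 0.99, with adjusted p-values of 0.261 and 0.144. miR-466i-5p had 5, 21, 5, 2 and 7 reads, at a mean of 3.28 ± 1.79 CPM, a change of 1.18 ± 0.69 (adjusted p 0.166). miR-467d-5p had 12, 17, 6, 0 and 0 reads, and miR-467b-5p 7, 15, 0, 2 and 0. miR-669c-5p had 12, 13, 0, 4 and 6. In these rows the 0 counts fell in the shallow libraries, except for the 0 of miR-467e-5p in mouse 1.

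The TAC+PDE5A-I libraries also stood apart in cell type markers, heart muscle included. Of the 4 heart muscle markers, 3 had a lower mean than in TAC, among them miR-1a-3p (4171 CPM in TAC, 431 in TAC+PDE5A-I), and miR-133a-3p had a higher one (109437 and 193734). Both endothelial markers had lower means, with a summed level of 1111 to 17664 CPM against 29588 to 41341 in TAC, and so did the 3 erythroid markers, at 25.7 to 469 against 441 to 1167. The neural marker with counts, miR-9-5p, had a lower mean (12.1 and 6.27), and the liver marker miR-122-5p a higher one (0.827 and 0.935). The smooth muscle, leukocyte and stromal lists split. Of the 2 smooth muscle markers, miR-143-3p had a lower mean (93232 and 19547) and miR-145a-5p a higher one (543 and 869). Of the 5 leukocyte markers 3 were lower and 2 higher, and the summed level was 1259 to 2544 CPM in TAC and 2366 to 3339 in TAC+PDE5A-I. Between Sham and TAC the summed level of the 2 stromal markers did not overlap, at 190 to 292 CPM in Sham and 593 to 1353 in TAC. The neural sum did not overlap either and was lower after TAC, at 19.0 to 36.6 CPM in Sham and 8.19 to 16.1 in TAC. All 4 heart muscle markers, all 3 erythroid markers and the liver marker had a lower mean in TAC than in Sham. Both smooth muscle markers had a higher mean, while the leukocyte list (3 higher, 2 lower) and the endothelial list (1 and 1) split. The count-weighted GC content was 46.0 to 48.6% in TAC+PDE5A-I and 44.9 to 45.1% in TAC. It rests on the microRNAs with a known sequence, which held 32.0 to 54.5% of the counts in TAC+PDE5A-I and 53.3 to 61.6% in TAC. The part of GC content and of depth in the marker levels was not tested. The part of the marker differences, of GC content and of depth in the members' values was not tested either. In tissue of many cell types, fewer cells of a type and less RNA per cell cannot be told apart.

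With PF-04449613 no member was called against TAC, and the share called over all 561 was 0.0% in both directions. The fitted changes of the 8 ran from -0.28 to 0.78 with a median of 0.19, beside -0.04 over all tested microRNAs. In edgeR 1 member had an unadjusted p under 0.05, beside 1.78% of all tested microRNAs higher at that level. This was miR-467c-5p, higher by 0.78 ± 0.35 on the log2 scale (adjusted p 0.991), and DESeq2 called none of the members. miR-669a-5p/miR-669p-5p had a lowest count of 0, a median of 22.0 and a highest of 29 in this group, and miR-669o-5p 0, 13.5 and 26. Mouse 1 had no miR-669o-5p read, where the other libraries of its group would give 17.1, but 22 reads of miR-669a-5p/miR-669p-5p. The intervals of the changes were wide, as for miR-467d-5p (0.54, 95% interval -1.04 to 2.13).

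Set directly against each other, the 2 inhibitor groups differed in 1 tested member. Set against a floor of 3 reads per library, miR-669o-5p was 1.31-fold lower in TAC+PDE5A-I (edgeR adjusted p 0.0141). This was beside 19.6% of all tested microRNAs called lower and 15.2% called higher. The fold is no lower bound, since TAC+PDE9A-I mouse 1 was at 0 where its group would give 17.1 reads. With these 2 groups alone it did not pass the filter and was not tested, and leaving out single libraries gave an adjusted p of 0.00494 to 0.0405. For miR-467c-5p the difference was 0.15 on the log2 scale with a 95% interval of -0.59 to 0.88. miR-466i-5p was higher in TAC+PDE5A-I by 1.22 ± 0.66 without passing (adjusted p 0.147). miR-669a-5p/miR-669p-5p and miR-467e-5p had changes of -1.40 ± 0.80 and -1.51 ± 0.96, with adjusted p-values of 0.172 and 0.217. The remaining 3 lay between -0.22 and 0.28.

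Counts of 0 where reads would be looked for were counted in the members and in all other rows. Where the other libraries of a group would give a member at least 10 reads, 7 of 109 values were 0 (6.42%), beside 664 of 9717 (6.83%) for the other named rows. Between 10 and 30 such reads the shares were 6.54% and 19.8%. Those 7 belonged to 2 rows, miR-669o-5p (TAC mouse 1 and TAC+PDE9A-I mouse 1) and miR-467d-3p (Sham mice 1 to 4 and TAC mouse 2). For Sham mice 1 to 4 the reads looked for came from the 64 reads of Sham mouse 5 alone. A row at 0 in a whole group cannot enter this count, so miR-669o-5p in TAC+PDE5A-I is not in it. In the table the smallest value above 0 was 2 and none was 1.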

How the data were processed

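The authors deposited raw, unnormalised counts of reads per mature microRNA in 1 table of 21 libraries. Tools named in the submitters' processing notes, with no roles stated, are Bowtie 1.1.1, CASAVA 1.8.4, DESeq 1.26.0 and cutadapt 1.8. The build and the microRNA annotation were not given in the sources used here. Blank lines (24055 of 25958) were left out.

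Members were found by name and placed with GENCODE M21. Counts were analysed with edgeR 4.0.16 in R 4.3.3: filterByExpr by group left 561 microRNAs, which were scaled by TMM. A robust quasi-likelihood model took all 4 groups (17 residual degrees of freedom). P-values were adjusted by Benjamini-Hochberg over the 561 with a threshold of 0.05. DESeq2 1.42.0 was an alternative. The fitting code was tested on simulated data. Each library is 1 mouse, so p-values measure the spread between these mice.

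The members and lists were chosen with earlier results of these data known. Members are named if among the 8 of highest mean CPM, called in a comparison, of smallest p where none is called, or with a count in exactly 5 or exactly 4 libraries (up to 3 each of largest total). Other names were chosen after their values were seen. Replicate numbers were tested as pairs, and the check did not pair them. Alternatives were other scalings, no filter, 2 groups only, ear tag range, a replicate block, single libraries left out and shallow libraries left out.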

Additional observations from a re-analysis of the deposited data

Results flagged for a closer look

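The 8 tested members and the summed level were checked in each group for a single library far from the others, 35 groups of values in all, and 1 was found. miR-467e-5p was at 2.01 CPM (9 reads) in TAC+PDE5A-I mouse 2 and at 0 in the other 4 libraries of that group. Chance gives such a gap in about 1 in 20 groups of untied values. That rate does not cover this group, where the other 4 values were tied at 0 and mice 3, 4 and 5 were shallow libraries.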

How the results depend on the processing

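The 8 tested members kept a change below 0 in TAC against Sham under upper-quartile and total-count scaling, the ear tag covariate and DESeq2. Leaving out single libraries turned only miR-466i-5p (-0.42 to 0.27). With no filter, 27 members were tested and 20 had a change below 0, with a median of -0.54. The count called lower in TAC against Sham was 1 without the libraries under 2000000 counts (miR-467d-5p), beside 29 of all 660 microRNAs tested. That setting was chosen after seeing the data, like that without the members in under 5 libraries. The summed level kept its sign in every alternative run for TAC against Sham (without single libraries -0.996 to -0.79). For TAC+PDE5A-I against TAC it was 0.12 without the shallow libraries, 0.42 in the 500s tags, -1.17 in the 600s, 0.046 with upper-quartile scaling and -0.69 to -0.26 without single libraries. For TAC+PDE5A-I against TAC+PDE9A-I it was -0.51, with 0.14 in the 500s and -1.66 in the 600s. In the 500s TAC mouse 3 was the only TAC library, and in the 600s TAC+PDE9A-I mouse 6 was the only library of its group.

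In TAC+PDE5A-I against TAC, 1 member was called higher. The count was 2 with upper-quartile scaling, where miR-466i-5p joined, and 0 with no filter, the ear tag covariate, 2 groups only, DESeq2, the shallow libraries left out, or any single library left out (0 to 0). The count called lower, 1, was 2 with no filter (miR-466a-3p/miR-466e-3p joined), 0 with 2 groups only, where miR-669o-5p fell under the filter, and 1 to 2 without single libraries. In TAC+PDE5A-I against TAC+PDE9A-I, upper-quartile scaling gave 1 higher instead of 0. The count lower, 1, was 2 with no filter, 2 without the shallow libraries (miR-669a-3p/miR-669o-3p joined), 0 with 2 groups only and 1 to 3 without single libraries. Without TAC+PDE5A-I mouse 2, miR-467e-5p (adjusted p 0.00166 against TAC) was at 0 in all remaining libraries of that group and was called lower. In TAC against Sham over all microRNAs, 12 were called higher and 1 lower, and with 2 groups only 75 and 23. In TAC+PDE5A-I against TAC+PDE9A-I these counts were 85 and 110, and with 2 groups only 0 and 0.

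The replicate block ended both calls that it changed: miR-467c-5p against TAC (0 called higher, adjusted p 0.0853) and miR-669o-5p against TAC+PDE9A-I (0 called lower, adjusted p 0.0541). It changed no other call among the members. The numbers share no stated source, and the correlation of same-numbered libraries exceeded 0.1 in 1, 1, 2 and 3 of 5 pairs of the 4 comparisons (-0.21 to 0.35). Under the block miR-669a-5p/miR-669p-5p and miR-669o-5p turned to -0.32 and -0.63 in TAC+PDE9A-I against TAC.

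Changes near 0 turned sign in uncalled members. In TAC+PDE9A-I against TAC, miR-466i-5p turned to 0.013 (upper-quartile), 0.042 (total count), 0.15 (ear tag), 0.21 (no shallow libraries) and 0.058 (DESeq2), and miR-467b-5p to 0.011 without the shallow libraries. miR-467b-5p in TAC+PDE5A-I turned to 0.44 against TAC without the shallow libraries, and against TAC+PDE9A-I to 0.12 (upper-quartile) and 0.43 (no shallow libraries). Without single libraries the ranges in TAC+PDE9A-I against TAC were -0.022 to 0.46 for miR-669a-5p/miR-669p-5p, -0.45 to 0.42 for miR-669o-5p, -0.50 to 0.028 for miR-467b-5p and -0.24 to 0.19 for miR-466i-5p. In TAC+PDE5A-I against TAC+PDE9A-I they were -0.066 to 0.23 for miR-467c-5p, -0.18 to 0.33 for miR-467d-5p, -0.99 to 0.014 for miR-467b-5p and -0.024 to 0.44 for miR-669c-5p. Of 573 refits of 32 single-member results, 515 kept direction and side of the threshold, 18 lost a call, 6 gained one and 34 turned sign. Unless stated, the cause was not tested. The planned GC correction was not run, since 8 of 70 members have a mature sequence. Depth limits every value: counts were 40 or fewer per library for each of the 18 described members.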
